A study of Mus musculus with 13 samples.

Results

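Mouse oocytes at the germinal vesicle (GV) stage, before meiosis resumes, were compared with mature oocytes arrested at metaphase of the second meiotic division (MII), all from wild-type (WT) females, by the ribosome-protected fragments on each coding sequence. The genes described are those with 20 or more counts summed over the 5 WT libraries, which were 4060 of the 22442 genes listed and held 92.3% of the counts. The study set WT against Nat10-ZcKO oocytes, in which a floxed Nat10 (N-acetyltransferase 10, an RNA acetyltransferase) is deleted by a Cre driven by the oocyte promoter Zp3. Here its 3 WT GV and 2 WT MII libraries were compared, and the 6 Nat10-ZcKO libraries were used only where named. Each library came from a pool of about 100 oocytes of mice on a C57BL/6J background. Cycloheximide, which holds ribosomes in place, and RNase I, which trims the RNA they do not cover, were used on every group. Females were given PMSG at 21 days of age, and GV oocytes were taken 48 h later. Ovulated oocytes came from females given PMSG at the same age and then hCG, were collected 16 h after hCG and were freed of cumulus cells with hyaluronidase, and the methods do not say whether the MII oocytes of these libraries were ovulated or matured in culture. The series text also names a tamoxifen treatment over 3 days for the WT and ZcKO ribosome libraries, which the sample labels do not give. Whether the replicates came from separate mice is not said, so p-values measure only the spread between these libraries.

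A fully grown oocyte transcribes almost nothing, and the changes in protein synthesis on its way to MII draw on mRNA that was stored during growth. Many stored mRNAs carry a short poly(A) tail and a cytoplasmic polyadenylation element (CPE), a U-rich motif near the 3' end that the protein CPEB1 binds. When meiosis resumes these tails are lengthened and the mRNAs are loaded with ribosomes, while other mRNAs lose their tails and are degraded. A footprint count reflects the amount of an mRNA and its translation together, and these cannot be told apart here because no RNA levels were analysed.

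The WT GV libraries held 145464, 279464 and 96142 counts and WT MII replicate 1 held 134843. WT MII replicate 2 held 4815 counts, 28.0 times fewer than replicate 1, and had 0 counts for 3747 of the 4060 genes. Its largest shares went to Gja4, with 5.28% of its counts, and to A930002H24Rik, with 4.96%, each at most 0.147% of any other WT library. Across genes, which are not independent replicates, log2(CPM + 10) of replicate 2 correlated with replicate 1 at r = 0.092, while the GV libraries correlated with each other at r = 0.803 to 0.844 and MII replicate 1 with the GV libraries at r = 0.353 to 0.385. CPM is the count scaled by the total of its library, so that every library has the same sum. A total of 3 counts, the least taken as detection, were worth 623 CPM in MII replicate 2 and 22.2 CPM in MII replicate 1, so replicate 2 could not show most genes. The total number of genes called and most medians of gene lists are therefore given with and without it. Other values below leave replicate 2 out unless stated. Without it, MII rests on a lone library that the test assumes to vary as the GV libraries do.

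With all 5 libraries, edgeR's quasi-likelihood test called 0 of the 4060 genes higher and 0 lower in MII (0% called), at a Benjamini-Hochberg adjusted p under 0.05 and with MII replicate 1 beyond all 3 GV libraries. At an unadjusted p under 0.05, 142 genes lay higher and 413 lower in that fit, and DESeq2 on the same 5 libraries called 58 higher and 718 lower. Without MII replicate 2, edgeR called 747 genes higher (18.4% of those tested) and 734 lower (18.1%), and below the verbs rose and fell are used of these genes. DESeq2 on the same 4 libraries called 312 and 227 genes, all of them among those that edgeR called. MII replicate 1 lay above all 3 GV libraries in 1304 genes, below all 3 in 1890 and within their range in 866. That position is part of every call, so for genes that rose or fell it is no separate evidence. Counts of rises and falls in the lists below are read beside the shares of all genes, 18.4% and 18.1%. The fitted change was at least 4-fold for 467 of the genes that rose and for 557 of those that fell. The median log2 change over all 4060 genes was -0.23 without replicate 2 and -0.83 with it, and single changes are read against that shift.

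**Figure D1:**
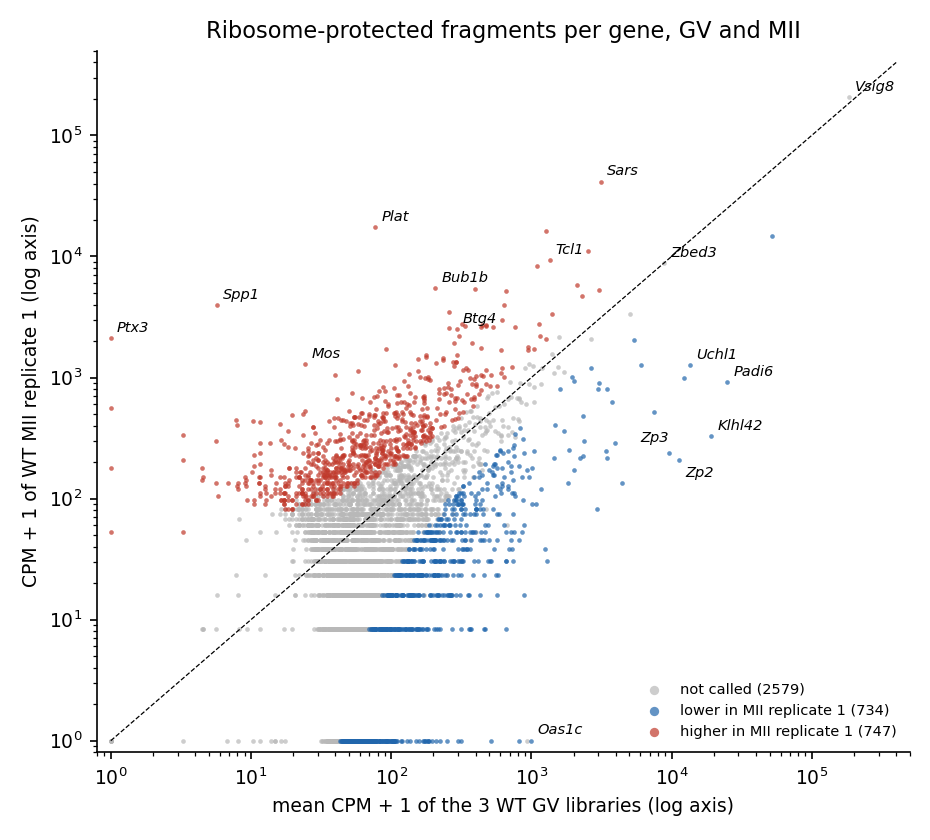
CPM + 1 of each of the 4060 genes in WT MII replicate 1 (vertical, log axis) against the mean of the 3 WT GV libraries (horizontal, log axis), with 747 genes called higher in red, 734 called lower in blue and the diagonal dashed. Plat, Spp1 and Ptx3 stand far above the diagonal, the zona genes Zp2 and Zp3 stand far below it, and Vsig8 and Zbed3 lie near it.

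The 2 sets of genes held different shares of the footprints at each stage. Genes that rose took 9.87%, 9.38% and 10.1% of the counts of GV replicates 1, 2 and 3 and 44.0% of MII replicate 1. Genes that fell took 33.7%, 39.0% and 43.0% of the GV libraries and 5.92% of MII replicate 1. These shares describe the genes that the test selected. In MII replicate 2 the same sets held 13.0% and 14.3%, on 4815 counts. Of the genes that fell, 176 had 0 counts in MII replicate 1, and of those that rose, 4 had 0 counts in all 3 GV libraries.

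Plat, which encodes tissue-type plasminogen activator, a secreted protease whose stored mRNA is a textbook case of translation during maturation, was among the strongest rises (ENSMUSG00000031538.6, chr8:22757727-22782844, GRCm38, plus strand). It stood at 61.9, 82.3 and 83.2 CPM in the GV libraries, 17350 CPM in MII replicate 1 and 2077 CPM in MII replicate 2, where it had 10 counts. Both MII libraries lay above every GV library, and replicate 1 was 229-fold above the GV mean of 75.8 ± 12.1 CPM (SD, n = 3). The fitted log2 change was 8.05 ± 0.27 (SE) without replicate 2 (edgeR, adjusted p = 1.14e-11) and 7.08 with it (adjusted p = 0.205). Spp1, which encodes the secreted phosphoprotein osteopontin (chr5:104435118-104441050, plus strand), had 1, 2 and 0 counts in the GV libraries, 532 counts or 3945 CPM in MII replicate 1 and 0 in replicate 2. The ratio of MII replicate 1 to the pooled GV counts was 685 (exact 95% interval 233 to 3330, counting error only), with an adjusted p of 1.52e-10 (edgeR, without replicate 2) and of 0.205 with it. Ptx3 (chr3:66219910-66225805, plus strand), which encodes pentraxin 3, a matrix protein of the expanded cumulus, had 0 counts in every GV library and in MII replicate 2 and 2114 CPM in MII replicate 1, at least 367-fold above the GV floor of 3 counts over the group (adjusted p = 4.29e-09 without replicate 2, 0.0732 with it).

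Bub1b and Mos were also among the 12 rises with the smallest p. Bub1b, which encodes the spindle checkpoint kinase BubR1, had 165, 172 and 281 CPM in the GV libraries, 5451 CPM in MII replicate 1 and 623 CPM in replicate 2, which is 3 counts. The groups did not overlap, and replicate 1 was 26.5-fold above the GV mean (log2 change 5.01 ± 0.27, edgeR adjusted p = 4.29e-09 without replicate 2, 0.39 with it). Mos, the kinase upstream of MAPK that holds the oocyte at MII, had 20.6, 39.4 and 10.4 CPM in GV, 1283 CPM in MII replicate 1 and 208 CPM in replicate 2, from 1 count. Its change was 54.7-fold (log2 5.73 ± 0.39, adjusted p = 7.44e-08 without replicate 2 and 0.205 with it). Bcl2l10, an anti-apoptotic Bcl-2 relative of oocytes, went from 1052, 1188 and 1061 CPM to 8395 CPM and Txnip, the thioredoxin-interacting protein, from 275, 211 and 291 CPM to 3448 CPM. Replicate 2 had 2 counts for Bcl2l10 and 1 for Txnip, below the GV range. The other rises among these 12 were E330021D16Rik (13.7-fold), Tbc1d14 (18.9-fold), AU022751 (12.8-fold), E330034G19Rik (7.91-fold) and the vitamin C transporter Slc23a2 (27.1-fold). With all 5 libraries edgeR called none of these 12 rises, DESeq2 called 5 and edgeR with library size only called 8.

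The 3' ends of 9 mRNAs that hold a CPE are shown because the CPE is the known signal of activation in maturation and its share differed between the calls. Each line is the 30 bases of the sense strand around a CPE in the last 100 bases of the mRNA, 5' to 3', from the GRCm38 transcripts of GENCODE M21, with the motif TTTTAT or TTTTAAT in capitals. The first 5 are from the genes above and the last 4 from Btg4, Cnot7, Dcp1a and Cdc20, which are described with their groups.
Plat: agtatatttataTTTTAATctattttagtt
Spp1: atacccttttagTTTTATaattagcatata
Bub1b: tttcactgtgtaTTTTATaataaaatagtt
Ptx3: tctactgtaaataaaatgTTTTATaaagct
Bcl2l10: cccttaatacatTTTTAATaacttcaaatt
Btg4: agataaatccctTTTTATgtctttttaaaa
Cnot7: tcttaaggtacaTTTTATatcaataaaaat
Dcp1a: gcaaatatatttTTTTAATaaaatttcaaa
Cdc20: ttcttgtttttaTTTTATtttttctaataa
The sites lie at chr8:22782744-22782773 on the plus strand (Plat), chr5:104440967-104440996 on the plus strand (Spp1), chr2:118641553-118641582 on the plus strand (Bub1b), chr3:66225776-66225805 on the plus strand (Ptx3) and chr9:75351579-75351608 on the plus strand (Bcl2l10). Those of the other 4 are at chr9:51119797-51119826 on the plus strand (Btg4), chr8:40493038-40493067 on the minus strand (Cnot7), chr14:30527009-30527038 on the plus strand (Dcp1a) and chr4:118432918-118432947 on the minus strand (Cdc20). All are in the 3' untranslated region. The motif of Bub1b runs straight into an AATAAA polyadenylation signal. In Ptx3 the motif starts 12 bases from the 3' end and lies after an AATAAA. The part of cumulus cells in the values of Ptx3 and Spp1 was not tested.

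The 12 falls with the smallest p included all 3 zona pellucida genes measured. Zp2, a glycoprotein of the zona pellucida (ENSMUSG00000030911.7, chr7:120126772-120145291, minus strand), had 8710, 12770 and 12590 CPM in the GV libraries, 208 CPM in MII replicate 1 and 0 counts in replicate 2. Both MII libraries lay below every GV library, and the GV mean was 54.7-fold above replicate 1 (log2 -5.52 ± 0.39, edgeR adjusted p = 8.22e-08 without replicate 2, 0.372 with it). Zp3 went from 8133, 10030 and 10830 CPM to 237 CPM, and Zp1 from 3850, 4627 and 4816 CPM to 134 CPM. Padi6, a deiminase of the oocyte's cytoplasmic lattices (chr4:140727355-140742643, minus strand), went from 19370, 27880 and 27890 CPM to 912 CPM, 27.5-fold lower. Oas1c, an oocyte member of the oligoadenylate synthetase family, had 124, 229 and 128 counts in GV and 0 in both MII libraries, at least 45.0-fold lower against the floor of 3 counts in MII replicate 1. The remaining 7 of the 12 genes with the smallest p were Fbxw24 (36.1-fold lower), Gm813 (43.2-fold), Fbxw21 (33.6-fold), Ooep (16.1-fold), Nlrp5 (14.4-fold), the mitochondrial aldehyde dehydrogenase Aldh2 (13.8-fold) and the mRNA-binding protein Zar1 (13.7-fold). All 12 had 0 counts in MII replicate 2, and none passed edgeR's test with that library (adjusted p from 0.205 to 0.439). With the same 5 libraries DESeq2 called all 12 (adjusted p from 1.2e-05 to 0.00252) and edgeR with library size only called 8.

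**Figure D2:**
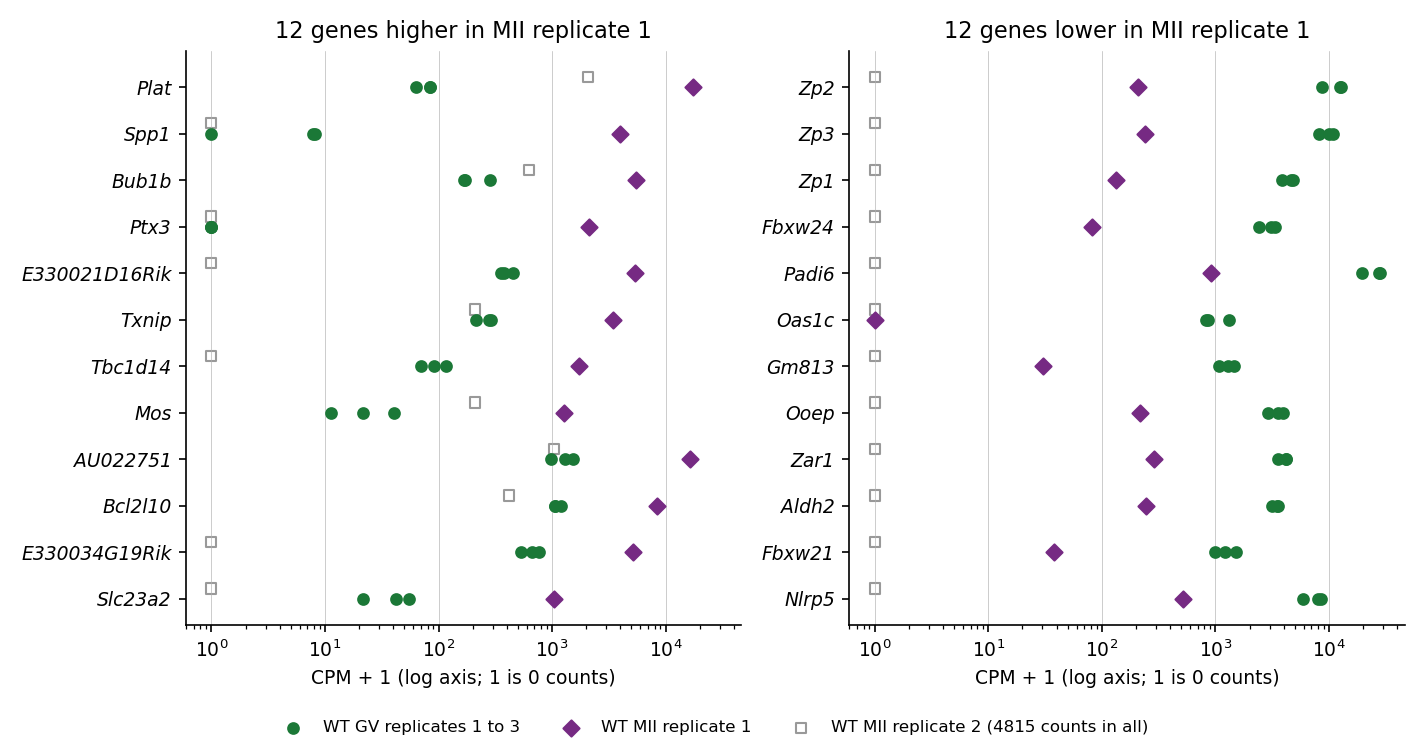
CPM + 1 (log axis, where 1 stands for 0 counts) of the 12 genes with the smallest p in each direction in WT GV replicates 1 to 3 (circles), WT MII replicate 1 (diamonds) and WT MII replicate 2 (open squares). MII replicate 1 lies apart from all 3 GV libraries in every row, which every call requires. MII replicate 2, with 4815 counts in all, is at 0 for all 12 genes on the right. On the left it is at 0 for 6 of the 12.

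CPEs were spread unevenly over the calls. Of the 746 genes that rose and had a coding transcript in the annotation, 36.5% held TTTTAT or TTTTAAT on the sense strand of the last 100 bases (exact 95% interval 33.0% to 40.0%), against 8.52% of 728 genes that fell (6.59% to 10.8%) and 17.9% of 2566 genes that were not called (16.5% to 19.5%). Over all 20940 genes with a coding transcript the share was 16.9%. Genes with 2 or more CPEs made up 6.84% of those that rose and 0.962% of those that fell. Among the 12 top rises, 9 had a CPE and E330021D16Rik, Tbc1d14 and Mos had none in this window, and 0 of the 12 top falls had one. These shares are descriptions, and their intervals cover counting error only.

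Other features of the 3' ends also moved with the calls. The last 100 bases had a median A+T content of 68.0% in the genes that rose, 61.0% in those that fell and 64.0% in the others, and the median 3' untranslated region was 1068.5, 558 and 935.5 bases long. The polyadenylation signal AATAAA or ATTAAA lay in the last 50 bases of 85.0% of the genes that rose and 76.5% of those that fell, and it overlapped a CPE in 3.89% and 0.275%. On the opposite strand the CPE letters occurred in 39.8% and 35.4%, but their reverse complement, ATAAAA, shares bases with AATAAA, so that share is no clean measure of base composition. A terminal oligopyrimidine start (C followed by at least 4 pyrimidines at the first base), known from ribosomal protein mRNAs, was present in 2.28% of the genes that rose, 1.92% of those that fell and 2.14% of the others. The part of base composition in the CPE difference was not tested.

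**Figure D3:**
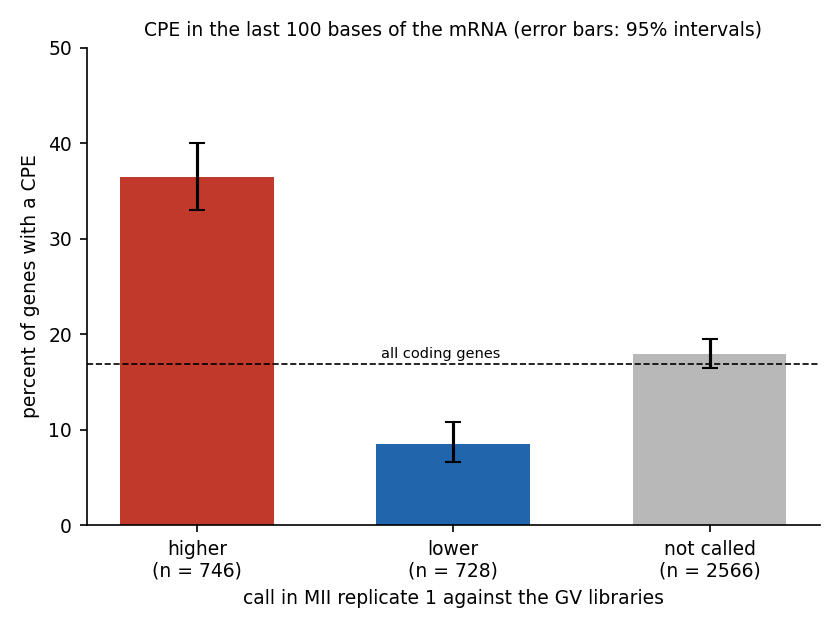
Percent of genes with TTTTAT or TTTTAAT in the last 100 bases of the mRNA, for genes called higher (746), lower (728) and not called (2566) in WT MII replicate 1 against the 3 WT GV libraries, with exact 95% intervals as error bars and the 16.9% of all coding genes dashed. The share is 36.5% for genes called higher and 8.52% for genes called lower, on either side of the 17.9% of genes not called.

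Known targets of translational activation in maturation rose almost throughout: of 25 listed genes 19 were measured, and 17 rose, 0 fell and 2 were not called, with a median log2 change of 2.84 without replicate 2 and 1.78 with it. The list was drawn up from textbook cases and with earlier results of these data known. Over all genes, 18.4% rose and 18.1% fell. Ccnb1, the cyclin of the M-phase kinase, had 11, 8 and 1 counts in GV and 62 in MII replicate 1, which is 75.6, 28.6 and 10.4 CPM against 460 CPM (log2 3.76 ± 0.50, edgeR adjusted p = 3.54e-05 without replicate 2). Slbp, which binds the stem-loop of histone mRNAs, went from 674, 533 and 718 CPM to 3960 CPM. Tpx2, a spindle assembly factor, went from 61.9, 68.0 and 125 CPM to 475 CPM, and Tex19.1, a germ-cell protein, from 61.9, 50.1 and 125 CPM to 438 CPM. All 4 were above every GV library, as a call requires. In this list 8 of the 19 measured genes had a CPE in the last 100 bases, 7 of them among the 17 that rose, and Ccnb1, Mos, Slbp, Tpx2 and Tex19.1 had none there. Aurka, a spindle pole kinase with a CPE, was measured but not called, at 193, 143 and 198 CPM in GV and 66.7 CPM in MII (adjusted p = 0.0797). With DESeq2, 13 of the 17 calls were kept, and Cnot6l, Dazl, Ccna2 and Nin were lost.

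The machinery that removes poly(A) tails was among the groups with more rises than the 18.4% of all genes. Of 19 measured genes of the CCR4-NOT complex and mRNA decay, 8 rose and 1 fell, with a median log2 change of 1.07 (0.79 with replicate 2). Btg4, the adaptor that brings CCR4-NOT to maternal mRNAs, had 330, 222 and 322 CPM in GV and 2499 CPM in MII replicate 1, 8.58-fold more (log2 3.35 ± 0.28, edgeR adjusted p = 4.63e-07 without replicate 2). Its deadenylase partner Cnot7 went from 34.4, 64.4 and 62.4 CPM to 475 CPM, and the paralog Cnot8 from 61.9, 17.9 and 10.4 CPM to 304 CPM. Pan2 (5.12-fold), the decapping activator Dcp1a (6.37-fold) and the poly(A)-binding Pabpn1l (8.48-fold) also rose. The deadenylase Cnot6l, at 3.85-fold, and the decapping scaffold Edc4, at 1.78-fold, were called by edgeR but not by DESeq2 (adjusted p = 0.118 and 0.0947). Cnot1, the scaffold of the complex, fell from 82.5, 147 and 166 CPM to 29.7 CPM, which is 4 counts, and that call was also lost with DESeq2 (adjusted p = 0.243). MII replicate 2 had 0 counts for all of these but Edc4, where 32 counts made up 6646 CPM. Btg4, Cnot7, Cnot6l and Dcp1a also belong to the list of activated genes above, so their rises are counted in both lists.

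Proteins that store and mask mRNA went the other way, read beside the 18.4% of all genes that rose and the 18.1% that fell. Of 19 measured, 9 fell, 2 rose and 8 were not called, and the median log2 change was -2.20 (-2.64 with replicate 2). Cpeb1 itself, the CPE-binding protein, had 578, 748 and 843 CPM in GV and 37.1 CPM in MII replicate 1, 19.5-fold lower (log2 -4.01 ± 0.46, edgeR adjusted p = 9.2e-06 without replicate 2). Its partner Eif4enif1 (4E-T) went from 543, 616 and 749 CPM to 59.3 CPM and the oocyte cap-binding protein Eif4e1b from 743, 1031 and 843 CPM to 96.4 CPM. Ybx2, the germ-cell Y-box protein that packages stored mRNA, went from 804, 1099 and 1311 CPM to 89.0 CPM, and Pabpc1l, the embryonic poly(A)-binding protein, from 633, 837 and 759 CPM to 29.7 CPM. For each of these MII replicate 1 was below all GV libraries, as a call requires. In MII replicate 2, Ybx2 had 3 counts and the others 0. Lsm14a, a component of P-bodies, and Dazl, an RNA-binding protein that activates translation, rose 2.90-fold and 4.57-fold. DESeq2 kept 6 of the 9 falls and Lsm14a, and did not call Zar1l, Igf2bp2, Patl2 or Dazl.

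Cell cycle genes split by member, and are read beside the 18.4% of all genes that rose and the 18.1% that fell. Of 16 measured genes of the cell cycle and MII arrest 8 rose and 3 fell, and the median log2 change was 0.65 without replicate 2 and -0.23 with it. Wee2, the oocyte kinase that inhibits CDK1 and is needed to leave MII, had 144, 172 and 125 CPM in GV and 690 CPM in MII replicate 1. Fbxo43, which encodes Emi2, the inhibitor of the anaphase-promoting complex at MII, went from 41.3, 28.6 and 10.4 CPM to 193 CPM. The MAPK kinase Map2k1 went from 138, 125 and 62.4 CPM to 460 CPM. Each lay above all 3 GV libraries, as a call requires. In the same pathway the MAP kinase Mapk3 fell from 151, 204 and 229 CPM to 22.2 CPM, which is 3 counts. The phosphatase Cdc25b, which starts meiotic resumption, fell from 75.6, 132 and 125 CPM to 7.42 CPM, and Plk1 from 282, 311 and 291 CPM to 89.0 CPM. DESeq2 called 5 of the 8 rises and 0 of the 3 falls (adjusted p from 0.0572 to 0.164). Ccnb2, the other main B cyclin, was not called, at 41.3, 64.4 and 93.6 CPM in GV and 14.8 CPM in MII.

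Of 20 measured genes of the anaphase-promoting complex and the spindle checkpoint, 5 rose and 3 fell, close to the share of all genes on either side (25.0% and 15.0%). Cdc20, the activator used at the exit from MII, rose 4.15-fold, from 82.5, 107 and 62.4 CPM to 349 CPM. Fzr1, the activator Cdh1 used in GV arrest, fell from 55.0, 122 and 146 CPM to 14.8 CPM, which is 2 counts. DESeq2 did not make that call. The checkpoint protein Mad2l1 rose 8.84-fold and the complex's subunit Cdc27 rose 5.46-fold. Within the chromosomal passenger complex Cdca8 (borealin) rose 3.81-fold and Birc5 (survivin) fell 13.9-fold, from 426, 469 and 343 CPM to 29.7 CPM. The checkpoint kinase Ttk had 0 counts in both MII libraries and 10, 34 and 5 in GV, at least 3.63-fold lower, and it was not called by DESeq2.

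Spindle and kinesin genes rose in 10 of 25 cases and fell in 2, with a median log2 change of 0.76 (-0.18 with replicate 2). Prc1, which bundles the midzone microtubules, had 117, 104 and 93.6 CPM in GV and 1268 CPM in MII replicate 1, a 12.1-fold rise (edgeR adjusted p = 2.85e-07 without replicate 2). Kif20b rose 3.60-fold and Kifc1, a minus-end kinesin, rose 9.12-fold on 20 counts in MII. Tacc3, which organises the spindle poles, and the tubulin Tubb4b fell 14.5-fold and 7.67-fold. DESeq2 kept 4 of the 10 rises, Prc1 and Kif20b among them, and both falls. Of 10 cohesin genes 2 rose and 2 fell, 20% each way and near the 18.4% and 18.1% of all genes. Separase, Espl1, rose from 337, 301 and 562 CPM to 1023 CPM, and Wapl, which releases cohesin, rose 4.89-fold. The cohesin ring subunit Smc1a and its loader Mau2 fell to 1 count each. Of these 4 DESeq2 called Espl1 alone.

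Actin and asymmetric division genes gave 5 rises and 3 falls among 18 (27.8% and 16.7%, against the 18.4% and 18.1% of all genes), with a median log2 change of -0.02. With replicate 2 that median was -0.81. Without replicate 2 its sign changed with DESeq2 (0.08) and without GV replicate 3 (0.09). The actin nucleator Fmn2, which moves the spindle to the cortex, rose from 75.6, 60.8 and 20.8 CPM to 237 CPM. Of the Arp2/3 subunits Arpc2 fell to 1 count and Arpc3 fell 2.77-fold, and the myosin Myo5b fell 4.06-fold. DESeq2 called Myo5b (adjusted p = 0.0489) and none of the other 7 of this group. Genes of meiotic arrest, whose products keep cAMP high in the GV oocyte, had 1 rise and 4 falls among 9 measured. Gnas, the stimulatory G-protein subunit, fell from 1292, 1456 and 1664 CPM to 401 CPM and Akap1, which tethers protein kinase A, from 419, 415 and 531 CPM to 44.5 CPM. Npr2, the receptor for C-type natriuretic peptide, had 0 counts in both MII libraries, and DESeq2 kept Gnas and Akap1 of the 4 falls. Gja4, the oocyte connexin 37, fell from 199, 254 and 229 CPM to 66.7 CPM in MII replicate 1 but had 254 counts, or 52750 CPM, in replicate 2. Its log2 change was -1.53 without replicate 2 and 3.65 with it, so its direction rested on which MII library was read.

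**Figure D4:**
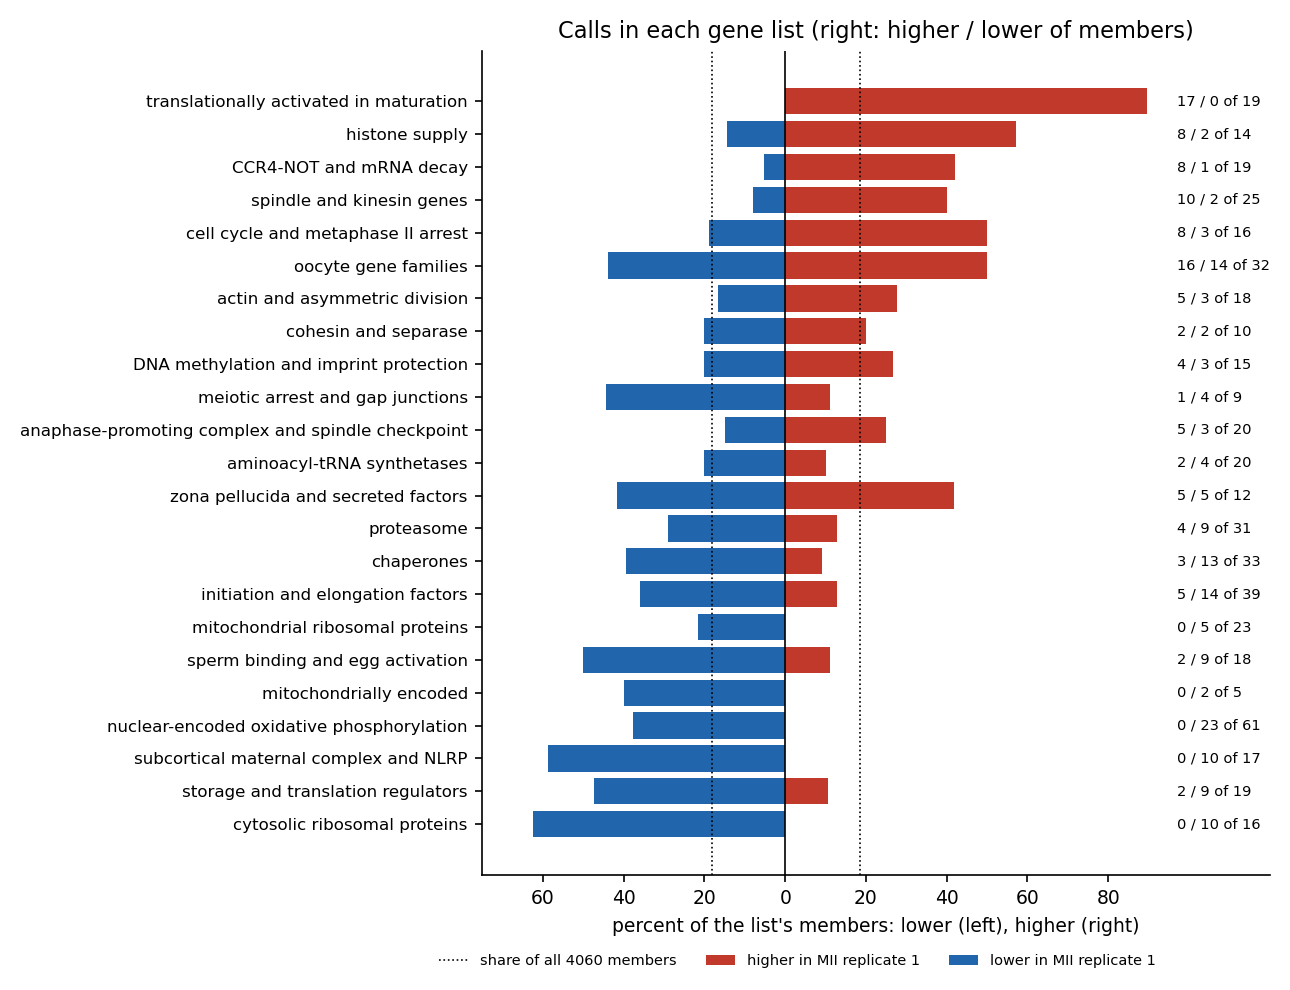
Percent of the measured members of each of 23 gene lists called higher (right, red) or lower (left, blue) in WT MII replicate 1 against the 3 WT GV libraries, with lists in order of their median log2 change, the counts at the right and the 18.4% and 18.1% of all 4060 genes as dotted lines. Translationally activated genes (17 higher, 0 lower of 19) stand at the top and cytosolic ribosomal proteins (0 higher, 10 lower of 16) at the bottom.

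For the sperm-facing surface, 9 of 18 measured genes of sperm binding and egg activation fell and 2 rose, with a median log2 change of -1.26 (-2.15 with replicate 2), 3 of the 9 being the zona genes above. Izumo1r (Juno), the receptor on the egg that sperm bind, had 605, 787 and 666 CPM in GV and 37.1 CPM in MII replicate 1, 18.5-fold lower (edgeR adjusted p = 1.18e-05 without replicate 2). Cd9, the tetraspanin needed for gamete fusion, fell 5.11-fold, a call that DESeq2 did not make (adjusted p = 0.0942). Astl (ovastacin), the protease that cleaves ZP2 after fertilisation, fell from 2619, 3192 and 3328 CPM to 905 CPM. The calcium channel Itpr1 fell 2.89-fold in edgeR alone (DESeq2 adjusted p = 0.142). Rgs2, which damps premature calcium release, rose 2.67-fold, and DESeq2 kept both rises and 5 of the 9 falls.

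Zona pellucida genes and secreted factors were read as a single list, whose falls include the zona genes above. Among all genes, 18.4% rose and 18.1% fell. Within it the Oosp family divided. Of 12 measured, 5 rose and 5 fell. Oosp1 rose from 337, 268 and 354 CPM to 2759 CPM and Oosp3 from 68.8, 89.5 and 52.0 CPM to 630 CPM, whereas their relative Oosp2 fell from 591, 454 and 645 CPM to 14.8 CPM, which is 2 counts. The ratio of the pooled GV counts of Oosp2 to MII replicate 1 was 35.6 (exact 95% interval 9.76 to 295). All 3 encode oocyte-secreted proteins. Gdf9, a growth factor by which the oocyte steers its cumulus, rose from 2743, 3324 and 3006 CPM to 5273 CPM (log2 1.04 ± 0.24, edgeR adjusted p = 0.00342). With replicate 2, where it had 0 counts, its log2 change was 0.045. Its partner Bmp15 was not called, at 550, 605 and 572 CPM in GV and 349 CPM in MII (adjusted p = 0.245). Kit, the receptor for kit ligand, fell 2.45-fold (adjusted p = 0.0443), a call lost with DESeq2 (0.251), as was the rise of Bmp6.

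Maternal-effect genes of the subcortical complex and the NLRP family gave 0 rises and 10 falls among 17, with a median log2 change of -2.06 (-2.91 with replicate 2), and DESeq2 kept all 10 falls. The shares of all genes were 18.4% and 18.1%. Besides Nlrp5, Ooep and Padi6, Tle6 fell from 2880, 4348 and 3994 CPM to 623 CPM and Khdc3 from 626, 694 and 645 CPM to 29.7 CPM. Nlrp14 fell from 9521, 13350 and 14190 CPM to 994 CPM and Nlrp2 from 1121, 1460 and 1799 CPM to 215 CPM. MII replicate 1 was below all 3 GV libraries for each, as a call requires. Zbed3, which belongs to the same complex, was not called: it had 9404, 7343 and 9912 CPM in GV and 8810 CPM in MII replicate 1, within the GV range, with a log2 change of 0.23 without replicate 2 and -0.77 with it.

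The list of oocyte gene families holds multicopy families, which separated by name, and other oocyte genes. Reads shared between near-identical copies make single members of the multicopy families uncertain. Among all genes, 18.4% rose and 18.1% fell. Of 32 measured genes, 16 rose and 14 fell. All 5 measured Tcl1 genes rose, with Tcl1 going from 1588, 1217 and 1238 CPM to 9300 CPM and Tcl1b1 from 110, 75.1 and 72.8 CPM to 831 CPM. All 3 measured Obox homeobox genes rose, Obox5 by 12.5-fold and Obox2 by 8.95-fold. The linker histone of the oocyte, H1foo, rose from 2303, 2641 and 2715 CPM to 11030 CPM, and the RING-finger protein Rfpl4 rose 7.18-fold. All 11 measured Fbxw genes of this list fell. Uchl1, a deubiquitinase that is among the most abundant oocyte proteins, fell from 13240, 12940 and 14400 CPM to 1261 CPM and the lactate dehydrogenase subunit Ldhb from 5190, 6716 and 6251 CPM to 1261 CPM. MII replicate 2 had 0 counts for Uchl1 and Ldhb, 2 for Tcl1 and 3 for H1foo. DESeq2 kept 11 of the 16 rises and 12 of the 14 falls.

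Among genes of DNA methylation and imprint protection 4 of 15 rose and 3 fell (26.7% and 20%, against the 18.4% and 18.1% of all genes). Tet3, which oxidises methylcytosine in the zygote's paternal genome, rose from 344, 225 and 208 CPM to 2551 CPM, 9.85-fold (edgeR adjusted p = 5.85e-07 without replicate 2). Trim28, the corepressor that guards imprints, rose 3.12-fold, and its recruiting factor Zfp57 rose 2.74-fold in edgeR alone (DESeq2 adjusted p = 0.0942). The maintenance methyltransferase Dnmt1 fell from 4668, 5983 and 5596 CPM to 2032 CPM, and its cofactor Uhrf1 from 2014, 2637 and 2361 CPM to 482 CPM. The demethylase Kdm1b, which sets up imprints during growth, fell 6.53-fold. MII replicate 1 lay outside the GV range for all 6, as a call requires. Of 14 genes of histone supply, 8 rose and 2 fell, with a median log2 change of 1.58 (0.67 with replicate 2). Atrx, a chromatin remodeller, rose 5.44-fold, and the testis and oocyte histone Hist1h2ba rose 2.22-fold, the latter not in DESeq2 (adjusted p = 0.0625). The histone chaperones Nasp and Chaf1a fell 4.40-fold and 6.91-fold. DESeq2 kept 3 of these 8 rises and 1 of the 2 falls.

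Ribosomal protein and oxidative phosphorylation genes had 0 rises. Of 87 listed cytosolic ribosomal proteins only 16 passed the count filter, and 10 of those fell and 0 rose, with a median log2 change of -2.89 (-3.21 with replicate 2). Rpl8 went from 413, 537 and 385 CPM to 44.5 CPM. Rps19 went from 220, 197 and 250 CPM to 22.2 CPM, which is 3 counts. Rpl4 fell to 1 count in MII replicate 1 but had 11 counts in replicate 2, and its log2 change was -4.20 without and -0.58 with that library. DESeq2 kept 4 of the 10 falls. Copies and pseudogenes of these genes share reads, so single values are uncertain. A gene passed the filter at 38.4 CPM over the GV libraries alone but needed 148 CPM in MII replicate 1 alone. The counts of falls in these lists therefore lean towards genes high in GV. All 87 listed genes together, measured or not, held 0.255%, 0.286% and 0.284% of the GV libraries, 0.0608% of MII replicate 1 and 0.353% of replicate 2. Of 61 nuclear-encoded genes of oxidative phosphorylation, 23 fell and 0 rose (median log2 change -1.66, and -2.21 with replicate 2), among them Atp5e (13.2-fold), Cox4i1 (7.80-fold) and Uqcrh (37, 59 and 31 counts in GV and 2 in MII), and DESeq2 kept 8 of the 23. Of 23 mitochondrial ribosomal proteins 5 fell (21.7%, near the 18.1% of all genes) and 0 rose, and of 5 mitochondrially encoded genes 2 fell and 0 rose, none of these 7 in DESeq2.

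Initiation and elongation factors fell in 14 of 39 cases and rose in 5, and DESeq2 kept 10 falls and 1 rise. These counts, and those of chaperones and proteasome genes, are read beside the 18.1% of all genes that fell and the 18.4% that rose. The elongation factor Eef2 fell from 811, 777 and 624 CPM to 141 CPM and Eef1a1 from 103, 107 and 198 CPM to 0 counts. The initiation factor Eif3b fell from 330, 293 and 687 CPM to 51.9 CPM. The kinases that phosphorylate eIF2, Eif2ak1 and Eif2ak4, rose 3.05-fold and 3.22-fold, the latter not in DESeq2 (adjusted p = 0.0783). Chaperones gave 13 falls and 3 rises among 33. Cct2, a subunit of the chaperonin that folds actin and tubulin, fell from 419, 490 and 458 CPM to 7.42 CPM, which is 1 count. Hsp90aa1 fell from 454, 590 and 645 CPM to 44.5 CPM, while Dnajb4 rose 5.95-fold. Proteasome genes fell in 9 of 31 cases and rose in 4, with Psmd6 falling from 51, 102 and 32 counts to 2 and Psmd3 rising 3.98-fold. DESeq2 kept 6 of the 13 chaperone falls and 4 of the 9 proteasome falls. Among 20 aminoacyl-tRNA synthetases 4 fell and 2 rose, or 20% and 10.0% against the 18.1% and 18.4% of all genes. Qars fell from 605, 637 and 728 CPM to 29.7 CPM, and it was the single call of this group that DESeq2 kept. Sars had 7026, 419 and 1914 CPM in GV and 41450 CPM in MII replicate 1, and its call (adjusted p = 0.000988) was lost with DESeq2 (0.113).

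Markers of the cells around the oocyte were read beside these results. Of the 12 oocyte markers, all were measured, and their summed share was 5.58%, 7.69% and 7.63% in the GV libraries, 1.12% in MII replicate 1 and 0.0208%, or 1 count, in MII replicate 2. Of these markers 9 fell and Gdf9 and Oosp1 rose. Of 15 granulosa and cumulus markers 11 were measured, and the list summed to 0.309%, 0.417% and 0.37% in GV, 0.468% in MII replicate 1 and 0 counts in replicate 2. Within it Ptx3, Tnfaip6, Ptgs2 and Star rose, the first 3 of them being genes that cumulus cells switch on at ovulation, and Inha, Amh and Hsd17b1 fell, and DESeq2 did not call Ptgs2, Star, Inha or Hsd17b1. Tnfaip6 had 0 counts in all GV libraries and 556 CPM in MII replicate 1, at least 96.6-fold higher, and Ptgs2 had 2, 0 and 0 counts against 40. Amh, of granulosa cells, went from 413, 333 and 655 CPM to 7.42 CPM, which is 1 count. The part of cumulus cells in the values of Ptx3, Tnfaip6 and Ptgs2, and in those of Spp1, was not tested. Smooth muscle markers summed to at most 0.098% of any WT library and adipocyte markers to at most 0.0268%. Oviduct markers had 1, 5 and 0 counts in the GV libraries, 22 counts (0.0163%) in MII replicate 1 and 0 in replicate 2. Keratinocyte markers summed to at most 0.00208% of the GV libraries, 0.000742% of MII replicate 1 and 0.0831%, or 4 counts, of replicate 2. The part of oviduct cells in MII replicate 1 was not tested.

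A few genes held much of every library. Vsig8 took 24.8%, 18.95% and 11.4% of the counts of the GV libraries, 20.6% of MII replicate 1 and 1.37% of replicate 2, and was not called (adjusted p = 0.474). Per coding length it was also the highest at both stages, at 189200 ± 67730 TPM (CPM per base of coding sequence, scaled to the same sum) in GV (SD, n = 3) and 213100 TPM in MII replicate 1. Behind it in GV came Mroh6, Uchl1 and Zbed3, at mean levels of 31210, 26100 and 16770 TPM, and in MII replicate 1 Sars, Bcl2l10 and Tcl1, at 33340, 18950 and 18060 TPM. The order of Mroh6 and Uchl1 in GV was within their spread, since the SD of Mroh6 was 15000 TPM. Klhl42, the fifth in GV at 16770 ± 7594 TPM, fell to 285 TPM. Without the 26 genes that passed 1% of any WT library, edgeR called 761 genes higher and 768 lower in the 4 libraries. Nat10, which the study deletes, had 8, 11 and 3 counts in the WT GV libraries, 1 in MII replicate 1 and 5 in replicate 2 (ENSMUSG00000027185.15, chr2:103721256-103761270, minus strand), and was not called (log2 change -2.19, adjusted p = 0.2 without replicate 2, and 0.18, 0.958 with it).

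The Nat10-ZcKO libraries, 3 GV and 3 MII, hold the same pair of stages in samples that the WT calls did not use. Their GV replicates 1 and 2 carried 0.0212% and 1.56% of oocyte markers against 11.0% in replicate 3, so values are given also with replicate 3 as the lone GV library. The log2 change from GV to MII in these libraries was above 0 for 92.8% of the 747 genes that rose in WT (97.3% with GV replicate 3 alone), for 6.40% of the 734 that fell (2.59%) and for 40.6% of 2571 genes that were not called (44.2%). Its median was 2.31 for genes that rose and -1.39 for genes that fell, or 2.50 and -2.03 with GV replicate 3 alone. Across genes, log2(CPM + 10) of WT MII replicate 1 had r = 0.809 to 0.865 with the MII libraries of Nat10-ZcKO, and WT MII replicate 2 had r = 0.0676 to 0.0802. Plat had 94.4, 542 and 130 CPM in Nat10-ZcKO GV and 19790, 16230 and 19910 CPM in MII, and Mos 0, 77.4 and 14.4 CPM against 1346, 545 and 1121 CPM. Of the 1481 genes called in WT, 692 had Nat10-ZcKO MII and GV libraries that did not overlap and lay in the same direction, and 6 (Actb, Ahnak, Arpc5l, Atp1b2, Clu and Klf17, named after their values were seen) lay in the opposite one. With GV replicate 3 alone these counts were 1376 and 12. Over all 4060 genes, Nat10-ZcKO MII lay clear above GV in 17.4% and clear below in 15.4%, or in 33.6% and 41.8% with GV replicate 3 alone. Among genes that were not called these shares were 9.07% and 15.4%, or 25.6% and 39.4%. Sars, the most heavily counted of the genes that rose in WT, had 4297, 716 and 206 CPM in Nat10-ZcKO GV and 218, 143 and 68.9 CPM in MII.

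**Figure D5:**
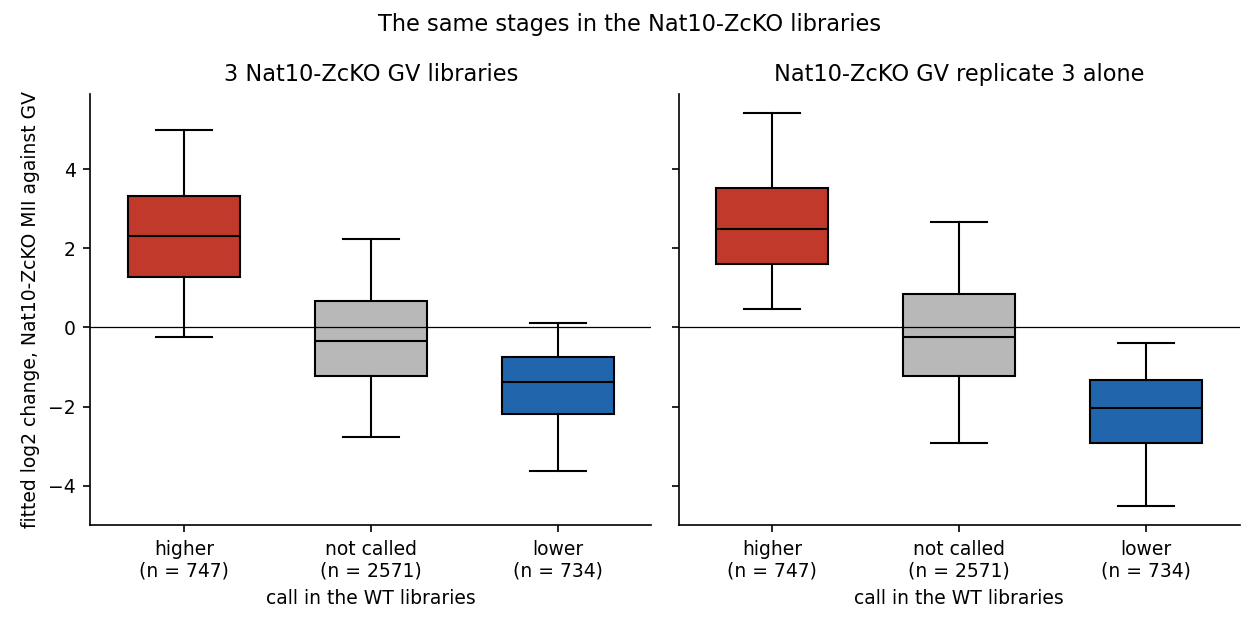
Fitted log2 change of Nat10-ZcKO MII against Nat10-ZcKO GV for genes called higher (747), not called (2571 with a fitted value) and called lower (734) in the WT libraries, with 3 Nat10-ZcKO GV libraries (left) or replicate 3 alone (right); boxes are quartiles with the median line, and whiskers run from the 5th to the 95th percentile. The medians are 2.31 and -1.39 on the left and 2.50 and -2.03 on the right for genes called higher and lower in WT.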

How the data were processed

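Ribosome-protected fragments were sequenced from pools of WT oocytes at GV (3 libraries) and MII (2 libraries), and from Nat10-ZcKO oocytes (3 and 3). The authors deposited 1 file per library with whole-number counts per coding sequence, not normalized, for 22442 genes. The submitters' processing notes name cutadapt, STAR, HTSeq and the build mm10, and versions, rRNA removal, duplicate handling and the strand setting are not given in the sources used here. Without a stated strand setting or molecular identifiers, overlapping genes and PCR copies cannot be separated, and intervals and floors cover counting error only. The acRIP files were not used here.

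Genes with 20 or more counts over the 5 WT libraries were tested with edgeR 4.0.16 (R 4.3.3, TMM factors, quasi-likelihood test, no covariates), with Benjamini-Hochberg adjustment over all 4060. This filter takes in a gene at 148 CPM in MII replicate 1 alone or at 38.4 CPM over the GV libraries alone, so genes high at 1 stage passed more easily. A call needed an adjusted p under 0.05 and MII replicate 1 beyond all 3 GV libraries. The design written for this work put all 5 libraries in the main test, and the calls described use the fit without MII replicate 2. Folds are ratios of CPM of MII replicate 1 and the GV mean. Ratios for genes with 1 to 3 counts on a side are of pooled counts with an exact conditional binomial interval. Log2 changes are fitted with a prior count of 0.125. The SE of an edgeR log2 change is its size over the square root of the test's F value. Without replicate 2 this SE holds no spread between MII libraries. DESeq2 1.42.0 and limma 3.58.1 served as alternatives, with library-size scaling, other filters, left-out libraries and a replicate block. The edgeR and DESeq2 fits were also run on simulated counts with known changes, and the other steps were not. Gene models came from GENCODE M21 (GRCm38), which matched 22399 genes, and the transcript with the longest coding sequence gave the 3' ends. CPE shares have exact (Clopper-Pearson) 95% intervals, and TPM uses coding length.

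The members, gene lists and markers were chosen with earlier results of these data known, so list counts are descriptions. Some genes are in several lists, so a call can be counted in several of them. Genes were named by rule: Nat10, the 12 smallest p in each direction, and from each list up to 4 members with the most counts plus called members, of which a selection is given. In the Nat10-ZcKO libraries 8 genes that were not called had no fitted value.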

Additional observations from a re-analysis of the deposited data

Results flagged for a closer look

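For Actb, the cytoplasmic actin, WT MII replicate 1 lay above all 3 WT GV libraries while the Nat10-ZcKO MII libraries lay below all of theirs. It had 468, 551 and 687 CPM in WT GV, 845 CPM in WT MII replicate 1 and 0 counts in WT MII replicate 2, with a log2 change of 0.827 without replicate 2 and of -0.16 with it, so the WT direction rests on leaving that library out. The Nat10-ZcKO libraries had 3116, 658 and 548 CPM in GV and 537, 204 and 451 CPM in MII. The difference between the genotypes was not tested. In WT the call was lost with DESeq2 (adjusted p = 0.163).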

How the results depend on the processing

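The limits lie in WT MII replicate 2 and in the lone library that remains without it. With 5 libraries 0 genes were called higher, against 480 with library size only, 58 with DESeq2, 6 with filterByExpr, 54 at 50 or more counts, 82 with the Nat10-ZcKO MII libraries sharing the dispersion (657 when replicate 2 was also left out) and 28 without genes over 1% of a library. For genes called lower, 0 in the same fit, these gave 728, 718, 0, 44, 119 (456) and 0. Leaving out 1 library at a time gave 0 to 747 genes higher and 0 to 1695 lower: 747 and 734 without MII replicate 2, 101 and 1695 without MII replicate 1, and 0 without any GV library. No filter, limma voom with sample weights, and the adjusted p alone gave 0 in both directions. In the labels, same-numbered GV and MII samples share only a number, and the correlations of their deviations were -0.0296 and 0.00195. With 2 MII libraries the deviations mirror each other, and replicate 2 was nearly empty, so these correlations cannot show whether samples were paired. The fit with the replicate block called 0 higher and 0 lower. Without replicate 2, the 747 and 734 calls became 312 and 227 with DESeq2, 637 and 880 with library size only, and 709 to 793 and 670 to 807 without each GV library in turn. With the dispersion shared with Nat10-ZcKO MII they became 657 and 456. The CPE share became 43.8% and 12.6% in the last 150 bases, 47.9% and 12.5% over every coding transcript, and 4.44% for the genes that fell in DESeq2. The Nat10-ZcKO shares above 0 became 97.3% and 2.59% with GV replicate 3 alone. Fitted log2 changes with 5 libraries reversed for 9 named genes, but 148 of the 157 named genes, with 3 or fewer counts in replicate 2, have no value without MII replicate 1. Left-out libraries gave a range of -3.51 to 3.91 for AU022751, -0.9 to 0.23 for Zbed3, -0.0042 to 1.04 for Gdf9, -4.2 to 0.48 for Rpl4, -3.61 to 4.44 for Sars, -1.53 to 4.62 for Gja4, -0.27 to 0.83 for Actb, -6.99 to 0.37 for Vsig8 and -2.19 to 1.37 for Nat10. Library size only and DESeq2 gave -0.11 and -0.49 for Gdf9 and 2.38 and 0.34 for Rpl4. Without replicate 2, 0 of 918 values of the named genes reversed, 53 lost their call and 1 gained it. All 918 rest on MII replicate 1 as the only MII library, and many of the genes were named because this fit called them. A reversal was therefore unlikely from the start, and the spread between MII libraries was not tested. The median of 11 list and setting pairs changed sign, among them cell cycle (-0.23 to 0.65), spindle (-0.18 to 0.76) and oocyte families (-0.29 to 0.45) once replicate 2 was left out. Causes beyond the libraries and genes left out were not tested.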
